A study of Mus musculus with 24 samples.

Results

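The respiratory chain and ATP synthase of mitochondria are built from 5 complexes, and their subunits were followed here as transcripts in C2C12 cells, an established mouse myoblast line. The members were the 97 genes of 48544 in the deposited tables whose names mark a subunit of complex I (Nduf genes), complex II (Sdha to Sdhd), complex III (Uqcr genes), complex IV (Cox4 to Cox8 genes) or complex V (Atp5 genes), with the protein genes of mitochondrial DNA. Of these, 84 are nuclear genes and 13 are encoded by mitochondrial DNA. By complex there were 37 nuclear and 7 mitochondrial members in complex I, 4 nuclear members in complex II, 8 and 1 in complex III, 18 and 3 in complex IV, and 17 and 2 in complex V. Deposited names that hold a hyphen in the reference end there, so the 13 mitochondrial genes were taken by identifier from 37 rows named mt, and 6 pseudogene rows that carry members' names were left out. The names also bring in Atp5s and Atp5sl, which are not classical subunits, and leave out Cyc1 and Cycs, which are described with the pathway lists below. Complexes were assigned by gene name alone, so the name, not the known place of the protein, puts Ndufa4 and Ndufa4l2 in complex I.

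The 6 groups of 4 libraries from wild-type C2C12 cells were as follows: proliferating myoblasts at day 0 in 10% serum; myotubes at day 7 in differentiation medium with 2% serum; and myotubes moved on day 7 to vehicle medium with 1% ethanol or to medium with 100 µM dexamethasone, a synthetic glucocorticoid used to model muscle atrophy, and collected after 24 h (day 8) or 72 h (day 10). The change from day 0 to day 7 therefore includes the change in serum, and ethanol is named in the labels for the vehicle medium only. The labels do not say that the numbered libraries came from separate cultures, so p-values measure the spread between these libraries, which may be technical. In such bulk samples, fewer cells of a type and less RNA per cell cannot be told apart.

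Complexes I, III and IV pass electrons from NADH and ubiquinol to oxygen and pump protons, complex II feeds electrons from succinate, and complex V uses the proton gradient to make ATP. Mitochondrial DNA encodes core subunits of complexes I, III, IV and V, and the nucleus supplies all the others, so that each complex but the second needs both genomes. In heart and skeletal muscle, several small subunits of complex IV exist as muscle isoforms (Cox6a2, Cox7a1, Cox8b) that take the place of ubiquitous ones (Cox6a1, Cox7a2, Cox8a).

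Levels are in TPM, a unit that scales each transcript to its length and to the library total, so that genes may be compared. Differences and adjusted p-values are from limma on the deposited table of log-scale values, taken as log2 although its base was not tested. Its differences ran at 0.635 to 0.706 of those in log2 TPM over 14405 genes. For the members they ran at 0.486 from day 0 to day 7 and at 0.683 to 0.695 in the other comparisons. They are therefore called table units, and folds are given as ratios of mean TPM. A gene was called at an adjusted p below 0.05 over 16257 genes tested. Between 12428 and 13030 genes reached 1 TPM in a library, and read depth is not given in the tables. The 8 myotube markers summed to 585 to 875 TPM at day 0 and to at least 16967 TPM in every later library, and 4 endothelial or blood markers to at most 0.0927 TPM. The 7 markers of dividing myoblasts summed to 551 to 702 TPM at day 0 and 165 to 235 TPM at day 7. Myod1 made up most of the day 7 sum, at means of 136 TPM at day 0 and 128 TPM at day 7. Top2a went from 189 to 21.8 TPM, Mki67 from 44.6 to 3.43 TPM and Myf5 from 44.0 to 11.7 TPM. Ccnb1, Mcm5 and Cdc6 also had lower means at day 7. Fibroblast markers summed to 2231 to 3358 TPM in vehicle and 160 to 1025 TPM in dexamethasone libraries at 72 h. Col3a1 made up most of this, at means of 2266 and 338 TPM. Mfap5, Cd248, Dpt and Dcn also had lower means with dexamethasone, but Pdgfra had 6.24 and 5.98 TPM. At 24 h the fibroblast markers summed to 1729 to 3099 TPM in vehicle and 1184 to 1357 TPM with dexamethasone. Pdgfra went the other way there, from a mean of 4.79 to 20.3 TPM. Adipocyte markers summed to 18.9 to 35.8 TPM in vehicle and 140 to 216 TPM with dexamethasone at 24 h. There Cebpa went from a mean of 24.8 to 136 TPM, Fabp4 from 0.145 to 38.0 TPM and Pparg from 2.59 to 4.24 TPM. At 72 h the adipocyte sums were 28.0 to 38.5 TPM in vehicle and 111 to 159 TPM with dexamethasone. Adipoq, Plin1, Cidec and Lep had means of at most 0.0849 TPM in every group. The part of these markers in the results below was not tested. Both replicate 1 libraries at 72 h carried signal of the opposite group. For 19 genes that the other 3 vehicle libraries nearly lacked, vehicle replicate 1 held a median of 13.5% of the TPM seen in dexamethasone replicate 1, against 0.286% in the highest of the others. For 17 genes nearly lacking with dexamethasone, replicate 1 held 19.1% of the TPM in vehicle replicate 1, against 1.33%. The low values of the other libraries follow from how these genes were chosen. The same search gave 4, 2 and 2 genes for vehicle replicates 2, 3 and 4, at medians of 128%, 21.3% and 88.8%. Dexamethasone replicates 2, 3 and 4 had 4, 6 and 5 genes, at medians of 0%. At 24 h, vehicle libraries had 22 to 26 genes at medians of 0.611% to 1.03%, and dexamethasone libraries at most 3 genes. Results at 72 h are therefore also given without both replicate 1 libraries.

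The promoters of Cox8b and Cox7a1, muscle isoforms with large rises from day 0 to day 7, and of the ubiquitous Cox8a, Cox7a2 and Cox6a1 are shown so that the pairs can be compared. Cox6a2 is not shown. Each line gives the 250 bases before the annotated start on the gene's own strand, from RefSeq on GRCm38.p6 (the submitters' processing notes name GRCm39, so these positions are not those of the quantification). They are Cox8b at chr7:140900447-140900696 (minus strand), Cox8a at chr19:7217617-7217866 (minus), Cox7a1 at chr7:30183921-30184170 (plus), Cox7a2 at chr9:79759854-79760103 (minus) and Cox6a1 at chr5:115348959-115349208 (minus). Capitals mark matches on either strand to the E-box CAGCTG bound by myogenic factors, the nuclear receptor half-site AAGGTCA, the ETS motif CCGGAA or the NRF1 motif, GCGCA and GCGC with 1 base between them.
Cox8b: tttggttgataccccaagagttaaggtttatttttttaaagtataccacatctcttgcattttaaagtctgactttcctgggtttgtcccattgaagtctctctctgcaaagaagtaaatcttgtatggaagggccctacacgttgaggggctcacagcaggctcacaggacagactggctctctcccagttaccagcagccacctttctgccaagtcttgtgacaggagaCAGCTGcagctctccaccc
Cox8a: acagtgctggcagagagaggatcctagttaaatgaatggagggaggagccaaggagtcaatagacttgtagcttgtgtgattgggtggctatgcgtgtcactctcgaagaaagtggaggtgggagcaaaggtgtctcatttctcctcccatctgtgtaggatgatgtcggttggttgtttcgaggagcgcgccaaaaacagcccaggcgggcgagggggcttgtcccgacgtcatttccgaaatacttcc
Cox7a1: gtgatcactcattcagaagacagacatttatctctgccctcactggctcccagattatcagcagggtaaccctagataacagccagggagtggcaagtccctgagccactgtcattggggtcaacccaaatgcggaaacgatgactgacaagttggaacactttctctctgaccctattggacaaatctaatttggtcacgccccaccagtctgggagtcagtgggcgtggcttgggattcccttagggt
Cox7a2: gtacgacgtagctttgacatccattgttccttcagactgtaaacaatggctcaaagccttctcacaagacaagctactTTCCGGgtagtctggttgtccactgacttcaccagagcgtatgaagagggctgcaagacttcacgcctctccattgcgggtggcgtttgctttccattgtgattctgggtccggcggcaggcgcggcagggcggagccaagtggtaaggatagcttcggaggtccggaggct
Cox6a1: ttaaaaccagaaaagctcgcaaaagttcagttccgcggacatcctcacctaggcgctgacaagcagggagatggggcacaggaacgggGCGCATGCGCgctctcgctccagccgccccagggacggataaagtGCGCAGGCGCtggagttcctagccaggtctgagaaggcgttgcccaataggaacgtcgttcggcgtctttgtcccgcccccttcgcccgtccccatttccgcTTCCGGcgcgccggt
Cox8b held 1 E-box, whose first base lies 19 bases before the start, and none of the other motifs. Cox6a1 held 2 NRF1 matches, at 162 and 117 bases before the start, and 1 ETS match at 15, while Cox7a2 held 1 ETS match at 172. Cox7a1 and Cox8a held no match to any of the 4 motifs in this window. Promoter windows were listed for 66 of the 84 nuclear members. The ETS letters were found in 20 of these 66 (30.3%) against 13.6% of 27025 genes with a window, and the NRF1 letters in 13 (19.7%) against 4.23%. E-box letters were in 6 members (9.09%) against 14.7%, and half-site letters in 5 (7.58%) against 4.70%. These matches are descriptions of sequence and were not tested against binding.

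Members differed widely in level. Over all 24 libraries, the highest nuclear members were Atp5b, the catalytic beta subunit of ATP synthase, at a mean of 1481 TPM, Cox6c at 1429 TPM, Atp5g3, a gene for the proton-carrying c-ring, at 1234 TPM and Ndufa4 at 1202 TPM. The lowest tested members were Atp5s at 9.48 TPM, Atp5sl at 9.62 TPM and Cox7a1 at 24.6 TPM. Of the 13 mitochondrially encoded members, 11 averaged more than any nuclear member, up to mt-Co1 at 13060 TPM and mt-Atp8 at 19562 TPM, while mt-Nd3 at 1341 TPM and mt-Nd6 at 108 TPM lay within the nuclear range. In all, 92 members passed the filter on low values, 79 of 84 nuclear and 13 of 13 mitochondrial. The other five stayed near zero in every group: Ndufa4l2 averaged 0.157 TPM, Cox7b2 0.196 TPM, Cox6b2 0.0921 TPM and Cox4i2 0.0693 TPM, and Cox8c was listed at 0 in every library. The low Cox4i2 and Ndufa4l2 left Cox4i1 and Ndufa4, at 903 and 1202 TPM, as the forms detected in these cells.

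The first comparison asks how the respiratory chain differs between myoblasts and myotubes. From day 0 to day 7, 61 of 92 tested members rose and 1 fell, where 30.5% of all tested genes rose and 60.3% were called in either direction. By TPM, 60 rose and 5 fell, where 58.3% of genes were called. The rise was in the nuclear members: 59 of 79 rose and Sdha fell, with a median ratio of 1.32 between day 7 and day 0. Of the 13 mitochondrially encoded members, 2 rose and none fell, at a median ratio of 1.02. By complex, 31 of 36 nuclear members rose in complex I, 3 of 4 in complex II, 6 of 8 in complex III, 11 of 14 in complex IV and 8 of 17 in complex V. Among 1520 genes with a mean above 100 TPM, 655 rose and 338 fell.

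**Figure D1:**
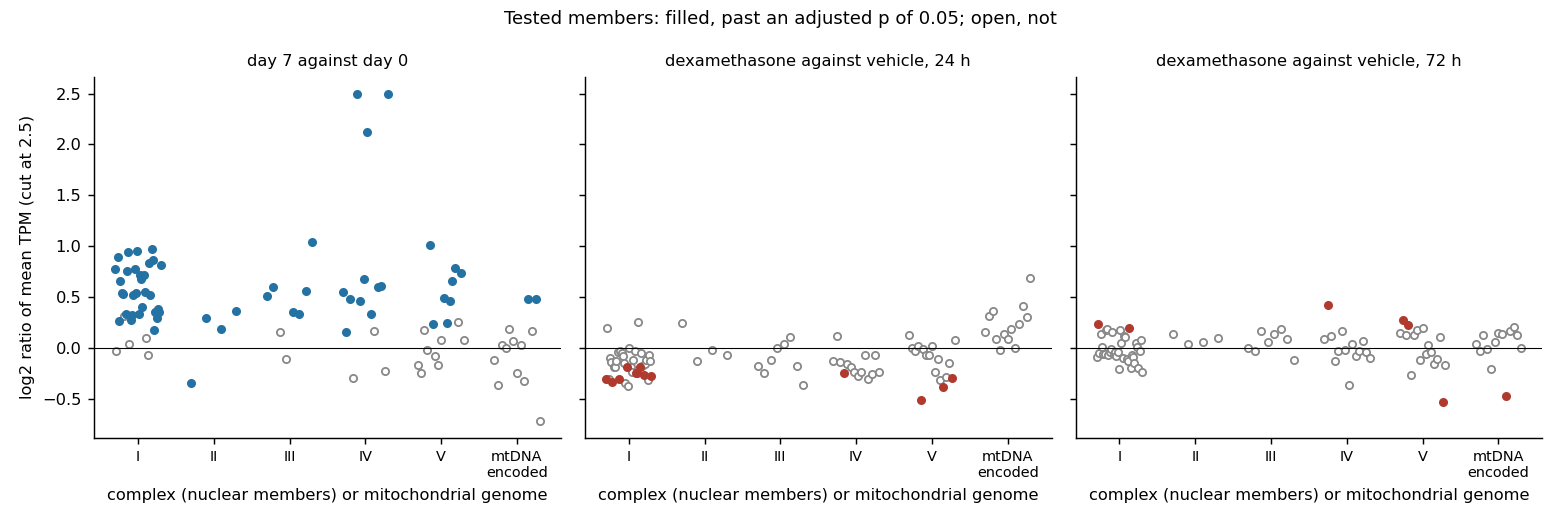
Log2 ratio of mean TPM (y) for each tested member, by complex for nuclear members and together for mitochondrially encoded ones (x), in 3 comparisons; filled points passed an adjusted p of 0.05. At day 7 most nuclear members sit above 0 with Cox6a2 and Cox8b drawn at the upper limit of 2.5, the 24 h dexamethasone panel shows 13 filled points, all below 0, and the 72 h panel 5 above and 2 below.

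The muscle isoforms of complex IV changed most. Cox6a2 was at 0.709, 0.386, 0.345 and 0.727 TPM in the 4 day 0 libraries and at 86.8, 77.9, 86.6 and 82.0 TPM at day 7. Every day 7 library lay far above every day 0 library, a 154-fold rise (3.34 ± 0.12 table units, SE, adjusted p = 1.07e-15 by limma). Cox8b stood at 1.14, 0.814, 1.57 and 2.92 TPM at day 0 and at 106, 117, 91.7 and 117 TPM at day 7, also without overlap. Its rise was 67.0-fold (adjusted p = 4.66e-10 by limma). Cox7a1 rose 4.35-fold, from 5.13, 3.69, 5.04 and 4.49 TPM to 20.9, 21.3, 17.2 and 20.5 TPM (adjusted p = 3.05e-06 by limma).

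The ubiquitous partners did not rise in the same way. Cox6a1 averaged 664 ± 29.9 TPM (SD, n = 4) at day 0 and 540 ± 38.5 TPM at day 7, and Cox8a 698 ± 52.4 and 594 ± 40.3 TPM; neither was called by the main test (adjusted p = 0.113 and 0.129 by limma), and both fell when log2(TPM + 0.1) was tested. Cox7a2 rose 1.26-fold (adjusted p = 0.0235 by limma), and Cox7a2l, a relative that acts in supercomplex assembly, went from 235 to 263 TPM without a call, or was called higher with a replicate block (adjusted p = 0.0486 by limma). As a share of each pair's TPM, Cox6a2 went from 0.0821 ± 0.0325% to 13.4 ± 1.17%, Cox8b from 0.226 ± 0.122% to 15.4 ± 2.00% and Cox7a1 from 1.09 ± 0.291% to 3.61 ± 0.374% (SD, n = 4). The ubiquitous form thus remained the larger part of each pair at day 7.

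After day 7 the isoform shares spread between libraries. In the 24 h vehicle libraries Cox8b held 31.9%, 15.5%, 15.8% and 19.6% of its pair, and in the 72 h vehicle libraries 36.2%, 14.5%, 29.9% and 14.9%. With dexamethasone it held 22.2%, 17.3%, 15.8% and 20.0% at 24 h and 28.8%, 22.6%, 21.2% and 23.4% at 72 h. At both times the dexamethasone values lay within the range of the vehicle values. Cox6a2 held 12.3% to 18.7% and 14.1% to 18.1% of its pair at 24 h in vehicle and dexamethasone, and 12.0% to 22.9% and 16.2% to 20.3% at 72 h. None of the 3 isoforms was called in either dexamethasone comparison: ratios were 0.824 and 0.777 for Cox7a1, 0.848 and 0.931 for Cox8b, and 0.898 and 0.976 for Cox6a2 at 24 h and 72 h.

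**Figure D2:**
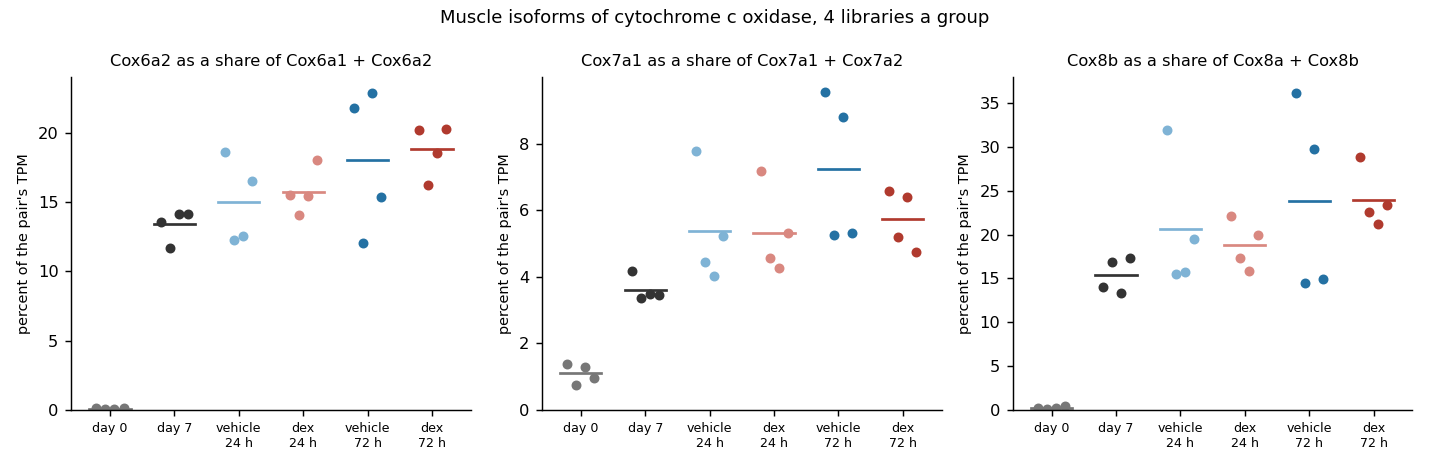
Share of the muscle isoform in each pair's TPM (y, percent) in each of the 24 libraries by group (x); points are libraries and lines group means. All day 0 points lie at or below 1.38%, all later points at or above 3.35%, and the vehicle groups spread most, with Cox8b between 14.5% and 36.2% at 72 h.

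Other members of complexes I, III and V rose by up to about 2.06-fold. Uqcrq, a small subunit of complex III, stood at 330, 396, 348 and 417 TPM at day 0 and 701, 874, 655 and 838 TPM at day 7, a 2.06-fold rise with no overlap (adjusted p = 2.04e-05 by limma). Atp5e, the epsilon subunit of the central stalk of ATP synthase, stood at 513, 635, 556 and 651 TPM and then at 1145, 1427, 993 and 1186 TPM, or 2.02-fold higher. Ndufs4, an accessory subunit near the NADH-oxidising arm of complex I, went from 69.2, 72.2, 62.2 and 74.3 TPM to 129, 149, 121 and 146 TPM, 1.97-fold higher. In both genes the lowest day 7 library exceeded the highest day 0 library. Ndufb4, Ndufa7, Ndufa11 and Ndufs5, accessory subunits of complex I, rose 1.93-, 1.92-, 1.85- and 1.82-fold.

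Complex II, whose 4 subunits are all nuclear, split. Sdha, the flavoprotein that oxidises succinate, had 139, 108, 132 and 120 TPM at day 0 and 102, 85.5, 112 and 93.7 TPM at day 7. The groups overlapped in 1 library each, and the fall was 1.27-fold (adjusted p = 0.00158 by limma). Its partner Sdhb, the iron-sulfur subunit, rose 1.22-fold, and the membrane anchors Sdhc and Sdhd rose 1.14- and 1.28-fold. Sdhc was not called by TPM (adjusted p = 0.0630 by limma). Neither Sdhb nor Sdhc was called when day 0 replicate 1 or 3, or day 7 replicate 2 or 4, was left out, and Sdhc also not without day 7 replicate 1. In complex V the most abundant nuclear member, Atp5b, went from 1530 ± 104 to 1284 ± 51.2 TPM (SD, n = 4), which the main test did not call (adjusted p = 0.190 by limma) and the TPM test called lower. The 3 c-ring genes, Atp5g1, Atp5g2 and Atp5g3, were not called in any of the comparisons with day 7 or dexamethasone, and Atp5g3 held 70.2 ± 0.832% of their summed TPM at day 0 and 72.6 ± 1.28% at day 7. Cox4i1, Cox6b1 and Cox7b, whose alternative forms were near zero, rose 1.47-, 1.37- and 1.51-fold, while Ndufa4 was not called (adjusted p = 0.0503 by limma, 1.24-fold).

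**Figure D3:**
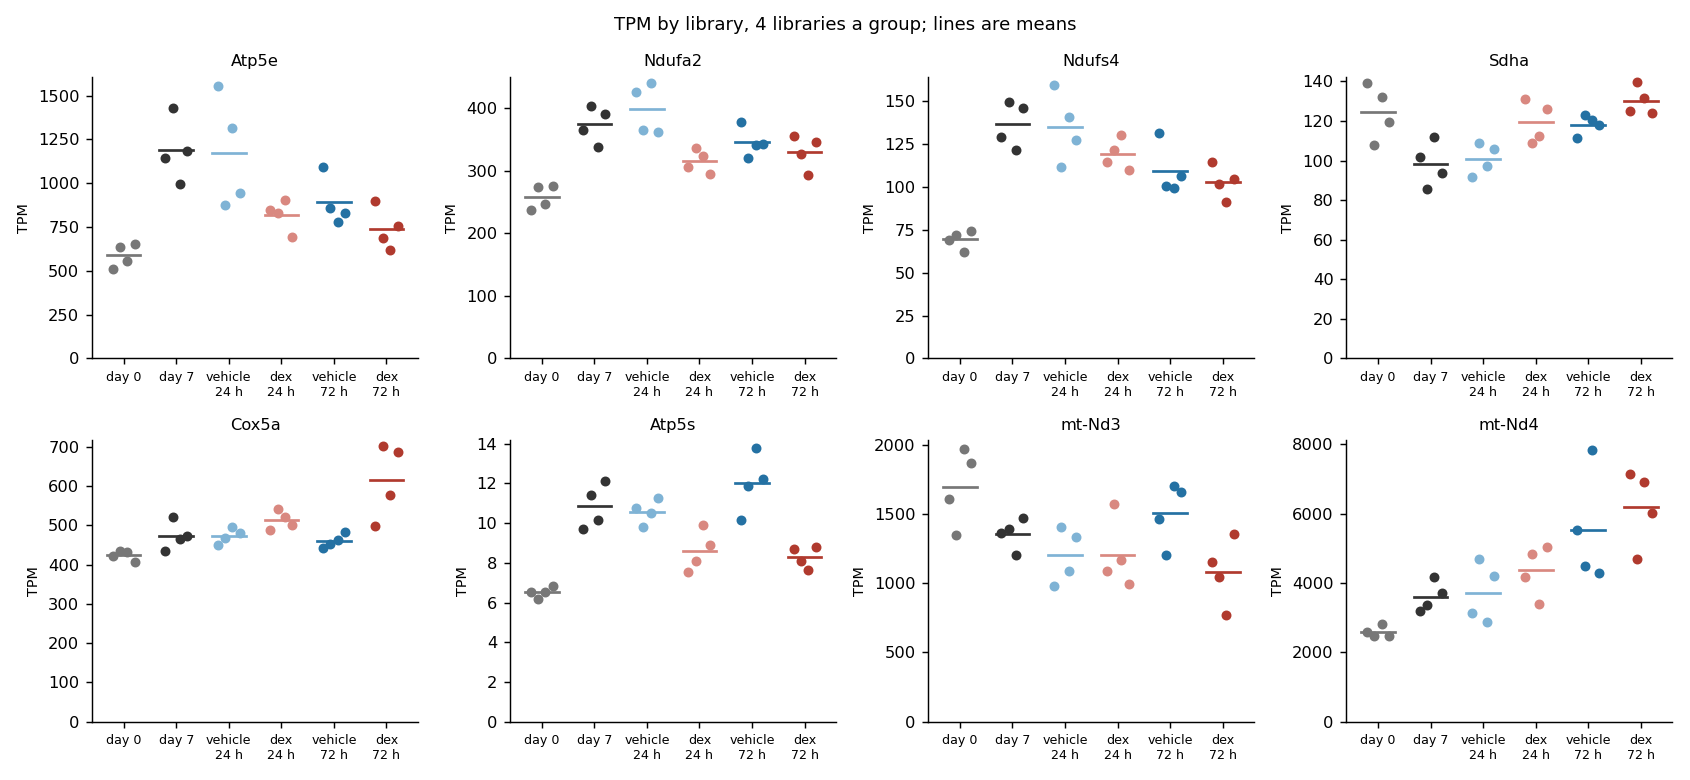
TPM (y) of 8 members in each library by group (x); points are libraries and lines group means. Atp5e, Ndufa2, Ndufs4 and mt-Nd4 have their lowest means at day 0. Cox5a has its highest mean with dexamethasone at 72 h (497 to 701 TPM), where the libraries overlap those of other groups. Atp5s and mt-Nd3 have their 72 h dexamethasone means below vehicle.

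Members with shorter annotated transcripts had the larger differences at day 7. Length here is the median over a gene's annotated protein-coding transcripts, and which of them were expressed was not examined. This measure gave 651 nt for Ndufs1, 533 nt for Uqcrc1 and 2413 nt for Ndufb2, so the bins below may not follow the expressed transcripts. The difference in table units correlated with log2 transcript length at r = -0.31 (Spearman rho = -0.38) over the 79 tested nuclear members, which share libraries and length scaling, and at r = 0.02 over 1340 other genes above 100 TPM. Of the 29 members under 600 nt, 23 rose, with a median difference of 0.43 table units. From 600 to 900 nt 21 of 26 rose, and from 900 to 1500 nt 14 of 18, so the share that rose was alike in these 3 bins. Of the 6 members of 1500 nt or more, 1 rose and 1 fell.

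The mitochondrially encoded members kept their summed level at day 7 but not their proportions. They took 8.74%, 7.40%, 8.54% and 8.59% of all TPM at day 0 and 7.75%, 7.51%, 8.60% and 8.08% at day 7, and the groups overlapped. The nuclear members together took 2.32%, 2.54%, 2.40% and 2.62% at day 0 and 3.14%, 3.61%, 3.01% and 3.35% at day 7, with no overlap. Among complex I core subunits, mt-Nd4 rose from 2589, 2474, 2814 and 2478 TPM to 3191, 3353, 4188 and 3708 TPM (1.39-fold, adjusted p = 0.0165 by limma), and mt-Nd5 rose 1.39-fold (adjusted p = 0.0151 by limma). No library of either gene overlapped between the groups. The lowest ratios belonged to mt-Nd6, the only one of these genes on the other DNA strand, at 0.606, mt-Atp8 at 0.773, mt-Nd3 at 0.799 and mt-Nd1 at 0.840, and none of these was called in the main test, although mt-Nd6 was with a replicate block (adjusted p = 0.0398 by limma). The others, mt-Nd2, mt-Nd4l, mt-Cytb, mt-Co1, mt-Co2, mt-Co3 and mt-Atp6, had ratios of 0.921 to 1.13. The libraries were made from poly(A) RNA, mt-Atp8 overlaps mt-Atp6 and mt-Nd4l overlaps mt-Nd4, and nuclear copies of mitochondrial genes exist, so the split of reads within these pairs is uncertain.

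**Figure D4:**
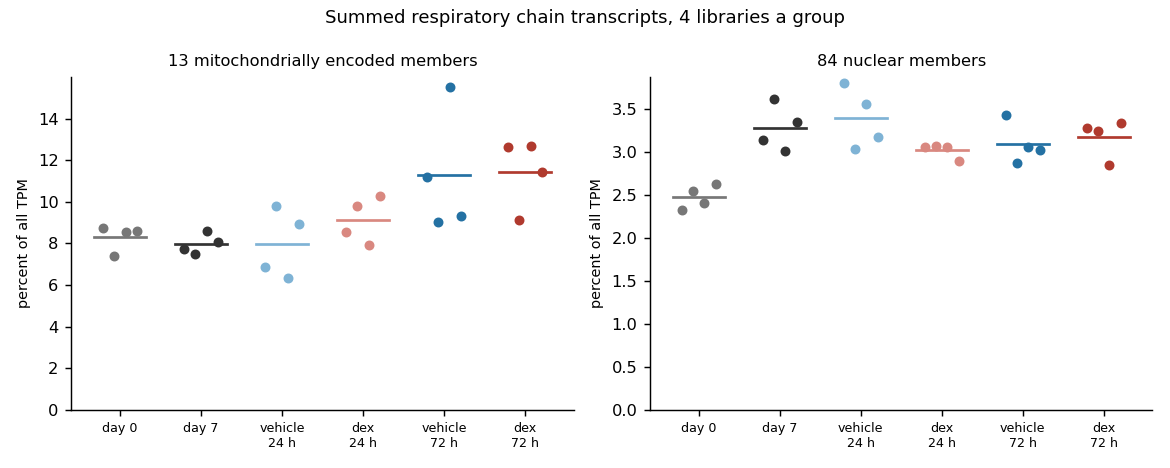
Percent of all TPM (y) taken by the 13 mitochondrially encoded and the 84 nuclear members in each library by group (x); points are libraries and lines group means. The mitochondrial share is between 7.40% and 8.74% at day 0 and reaches 15.5% in a 72 h vehicle library, while the nuclear share is at most 2.62% at day 0 and at least 2.84% in every later library.

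A pair of comparisons describes the vehicle myotubes over time. Between day 7 and vehicle at 24 h, limma called no member, and the TPM test also called none. An unadjusted p below 0.05 was seen for 5 members and for 2555 of 16257 genes. Of all tested genes, 0.209% were called on the table and 0.0262% by TPM. Between vehicle at 24 h and at 72 h, limma called 1 of 92 members and 4.36% of all tested genes. An unadjusted p below 0.05 was seen for 36 members and for 4003 of 16257 genes. By TPM, the 1 member called was Ndufs1, a core subunit of complex I, which was higher at 72 h (1.23-fold, adjusted p = 0.0463 by limma), where 1.77% of genes were called. Without both replicate 1 libraries at 72 h, 1 member was called on the table, where 2.34% of all tested genes were. Of the 36, 30 were nuclear members with a lower value at 72 h and 5 were mitochondrially encoded with a higher one. The summed mitochondrially encoded share was 6.85%, 9.81%, 6.35% and 8.95% at 24 h and 11.2%, 9.04%, 15.5% and 9.30% at 72 h, and the groups overlapped with or without replicate 1. The median difference over all genes tested by TPM was 0.13 in this comparison, and 0.003 table units in the main test.

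The next comparison asks what 24 h of dexamethasone did. No member rose and 13 of 92 (14.1%) fell, all nuclear, where 12.2% of all tested genes fell and 25.4% were called in either direction, so the share is close to that of the table as a whole. Among the 1520 genes above 100 TPM, 322 fell and 116 rose. Of the 13, 9 belong to complex I, 3 to complex V and 1 to complex IV. Another 23 members had an unadjusted p below 0.05 without a call. With the calls, 36 of 92 members and 6147 of 16257 genes had an unadjusted p below 0.05. Of the 79 nuclear members, 74 had a value below 0, and their median was -0.17 table units. The median over the 1520 genes above 100 TPM was -0.11 table units.

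Atp5e had the largest fall, from 1553, 873, 1317 and 947 TPM in vehicle to 845, 830, 905 and 692 TPM with dexamethasone. Only the highest dexamethasone library reached into the vehicle range, and the fall was 1.43-fold (-0.41 ± 0.14 table units, SE, adjusted p = 0.0366 by limma). Atp5k, the e subunit found at the dimer interface of ATP synthase, fell 1.30-fold, from 834, 637, 802 and 659 TPM to 574, 585, 575 and 516 TPM, without overlap (adjusted p = 0.0226 by limma). Ndufa2, an accessory subunit of complex I, fell 1.26-fold, from 426, 366, 440 and 362 TPM to 307, 337, 324 and 295 TPM, also without overlap (adjusted p = 0.0135 by limma). In the vehicle group, replicates 1 and 3 were the high libraries for all 3 genes.

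Among the complex I members that fell were also Ndufa1, Ndufa7, Ndufv3, Ndufs5, Ndufc1, Ndufc2 and Ndufb3, accessory or small subunits, by 1.24-, 1.24-, 1.21-, 1.21-, 1.19-, 1.19- and 1.14-fold. Cox6a1 fell 1.19-fold and Atp5s 1.23-fold. No mitochondrially encoded member was called at 24 h, by limma on the table or by TPM, and none had an unadjusted p below 0.05 on the table. Their share of TPM was 8.57%, 9.82%, 7.91% and 10.3% with dexamethasone, against 6.35% to 9.81% in vehicle. The 4 Sdh genes were not called either, with ratios of 1.19 for Sdha, 0.910 for Sdhb, 0.982 for Sdhc and 0.950 for Sdhd.

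This set of 13 rested on single libraries. Without vehicle replicate 1, 2 members were called, and 1 without vehicle replicate 3 or without dexamethasone replicate 4, whereas 31 fell without vehicle replicate 2. With dexamethasone replicates 1 and 2 left out in turn, 8 and 7 were called. By TPM, 10 fell and Ndufs1 rose, where 21.6% of genes were called, and Ndufb3 was not called with a replicate block (adjusted p = 0.0515 by limma).

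By the same annotated lengths, shorter members also had the lower values at 24 h. The difference in table units correlated with log2 length at r = 0.47 (Spearman rho = 0.48) over the 79 nuclear members, and at r = 0.15 (rho = 0.33) over the 1340 other genes above 100 TPM. Of the 29 members under 600 nt, 8 fell, with a median difference of -0.24 table units, and of the 6 members of 1500 nt or more none fell, with a median of -0.05. Other genes above 100 TPM had similar medians, at -0.25 under 600 nt (35 of 104 fell) and -0.04 at 1500 nt or more (82 of 558 fell and 72 rose). The part of transcript length in these differences was not tested.

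**Figure D5:**
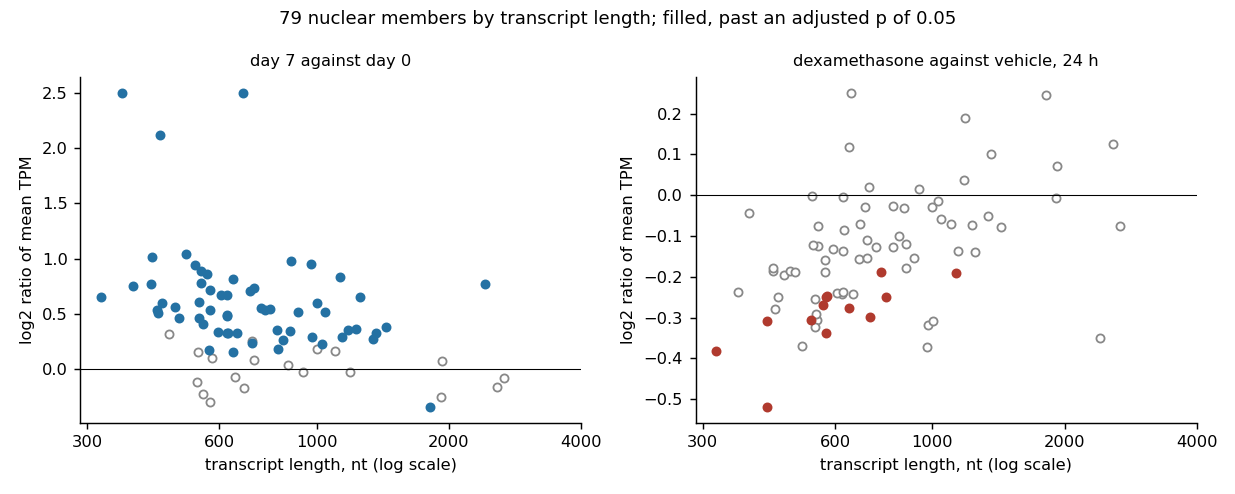
Log2 ratio of mean TPM (y) against median annotated transcript length in nt (x, log scale) for the 79 tested nuclear members. Panels are day 7 against day 0 (left, cut at 2.5) and 24 h of dexamethasone against vehicle (right). Filled points passed an adjusted p of 0.05. The filled points of the right panel lie between 0 and -0.52, and the 6 members longest by this measure include none of them.

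At 72 h of dexamethasone, 5 members rose and 2 fell, where 30.3% of all tested genes were called. Cox5a, a nuclear subunit on the matrix side of complex IV, went from 442, 452, 461 and 482 TPM in vehicle to 497, 701, 576 and 686 TPM. All 4 dexamethasone libraries lay above all vehicle libraries, replicate 1 least so, and the rise was 1.34-fold (0.29 ± 0.07 table units, SE, adjusted p = 0.00196 by limma). Atp5b rose 1.21-fold, from 1482, 1346, 1497 and 1569 TPM to 1663, 1948, 1635 and 1868 TPM, without overlap (adjusted p = 0.0441 by limma). Atp5d, the delta subunit of the central stalk, rose 1.17-fold, from 416, 364, 449 and 439 TPM to 433, 524, 471 and 524 TPM, with overlap (adjusted p = 0.0352 by limma).

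In complex I, Ndufs1, the core subunit with most of the iron-sulfur clusters, rose 1.14-fold (92.8, 98.5, 95.6 and 94.3 TPM in vehicle; 102, 121, 104 and 108 TPM with dexamethasone; adjusted p = 0.0210 by limma). Ndufa10, an accessory subunit, rose 1.17-fold (adjusted p = 0.0496 by limma) and was not called with a replicate block (adjusted p = 0.0527 by limma). Atp5s, which is related to an assembly factor rather than to a subunit, fell 1.45-fold, from 10.2, 11.9, 13.8 and 12.2 TPM to 8.69, 8.09, 7.62 and 8.80 TPM, without overlap (adjusted p = 0.00320 by limma). It was also among the members that fell at 24 h. The one mitochondrially encoded member called was mt-Nd3, which fell 1.39-fold, from 1463, 1201, 1702 and 1658 TPM to 1152, 1043, 773 and 1355 TPM; 1 dexamethasone library lay inside the vehicle range (adjusted p = 0.0442 by limma).

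The dividing-myoblast markers summed to 159 to 173 TPM in vehicle and 244 to 352 TPM with dexamethasone at 72 h, without overlap. Top2a went from a mean of 5.37 to 36.8 TPM and Myf5 from 10.8 to 64.8 TPM. Myod1 went from 142 to 122 TPM. At 24 h the sums were 150 to 170 TPM and 208 to 246 TPM, and Myf5 went from 8.21 to 57.1 TPM. Mki67, Top2a, Ccnb1, Mcm5 and Cdc6 had lower means with dexamethasone at 24 h and higher means at 72 h. The part of these markers in the calls was not tested.

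Without both replicate 1 libraries, 3 members rose (Cox5a, Atp5d and Ndufs1) and Atp5s fell, where 30.7% of all tested genes were called. Atp5b, Ndufa10 and mt-Nd3 were not called there, although their ratios of 1.24, 1.20 and 0.695 were at least as far from 1. Leaving out vehicle replicates 2 or 3, or dexamethasone replicates 2 or 4, brought the count to 3, 4, 2 and 3. With median-centred TPM, 6 rose and 1 fell, and by TPM 5 rose and 3 fell, where 26.6% of genes were called. The mt-Nd3 fall set it apart in value from mt-Nd4 and mt-Nd5, at ratios of 1.12 and 1.09 without a call; whether the genes differ from each other was not tested. The summed mitochondrially encoded share was 12.6%, 9.13%, 12.7% and 11.4% with dexamethasone, within the vehicle range, and the nuclear share was 3.27%, 3.24%, 2.84% and 3.33% against 3.43%, 2.87%, 3.05% and 3.02%.

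The response at 72 h minus that at 24 h tests whether the 2 times differ. Limma called no member, where 11.3% of all tested genes were called. An unadjusted p below 0.05 was seen for 12 of 92 members, all with the higher value at 72 h, and for 4229 of 16257 genes. The TPM test also called no member, and 10.9% of genes. With a replicate block, or without both replicate 1 libraries at 72 h, Cox5a was called, and its main value was 0.28 ± 0.10 table units (SE, adjusted p = 0.0558 by limma). Of the 79 nuclear members, 77 had a value above 0, and their median was 0.20 table units. The median over 1520 genes above 100 TPM was 0.13 table units. Under 600 nt it was 0.236 for nuclear members and 0.234 for other genes above 100 TPM.

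Genes that serve the chain were followed in 7 lists, none of which contains members. At day 7, where 30.5% of all tested genes rose and 29.8% fell, 30 of 48 tested assembly factors rose and 4 fell. Pet100 and Cox14, which act in complex IV assembly, rose 2.58- and 2.46-fold, and Lyrm7 and Coa3 rose 2.73- and 2.05-fold. Of 15 electron carriers and ubiquinone enzymes, 9 rose and 3 fell: Coq8a, an atypical kinase needed for ubiquinone synthesis, rose from 1.61 to 70.3 TPM (43.6-fold), Cycs, cytochrome c, fell 1.32-fold, Pdss1 fell 3.19-fold, and Cyc1, the cytochrome c1 subunit of complex III, was not called (adjusted p = 0.970 by limma). Of 13 citrate cycle enzymes, 5 rose and 6 fell, with Cs, citrate synthase, 2.05-fold lower at 120 against 245 TPM. Of 9 nucleotide carriers, uncoupling proteins and porins, none rose and 3 fell, Slc25a5 by 1.52-fold, Vdac1 by 1.38-fold and Slc25a4 by 1.29-fold.

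The regulators of mitochondrial biogenesis did not move one way at day 7, with 8 of 22 higher and 10 lower. Ppargc1a, the coactivator PGC-1 alpha, rose 2.84-fold but stayed low, at 0.153, 0.0752, 0.121 and 0.104 TPM at day 0 and 0.25 to 0.496 TPM at day 7. Nrf1, a transcription factor for many nuclear members, fell 1.72-fold, Esrra rose 1.25-fold and Ppargc1b was not called. Tfam, which packages and transcribes mitochondrial DNA, had 54.4 and 51.2 TPM and was not called in any of the comparisons with the main test. Of 22 genes of mitochondrial DNA maintenance and transcription, 11 rose and 4 fell; Slirp rose 1.96-fold and its binding partner Lrpprc fell 1.53-fold. Of 16 genes of fusion, fission and turnover, 9 rose and 2 fell, led by Mief2 at 3.34-fold, Bnip3 at 2.82-fold and Pink1 at 2.56-fold.

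With dexamethasone at 24 h, 13.2% of all tested genes rose and 12.2% fell. Of the 22 regulators, 11 rose and none fell (9 rose by TPM and 13 with a replicate block). Of 48 assembly factors, 9 fell and none rose (7 fell by TPM and 14 with a replicate block). Ppargc1a rose 3.59-fold, from 0.215, 0.430, 0.197 and 0.323 TPM to 1.19, 1.19, 0.577 and 1.22 TPM, without overlap (adjusted p = 0.000105 by limma). Nrip1, a corepressor of oxidative genes, rose 2.58-fold, Prkaa2, a catalytic subunit of AMP-activated kinase, 1.97-fold, and Ppargc1b 1.69-fold. Pet100, Sdhaf4, Ndufaf8 and Ndufaf3 fell 1.52-, 1.45-, 1.31- and 1.30-fold. At 72 h, where 15.2% of all tested genes rose and 15.2% fell, 8 regulators rose and none fell, or 4 and none by TPM and 7 and none without both replicate 1 libraries; Ppargc1a rose 2.54-fold, with 0.509, 0.683, 1.00 and 0.390 TPM in vehicle and 1.85, 1.63, 1.70 and 1.39 TPM with dexamethasone. Esrra was called there (1.15-fold, adjusted p = 0.0256 by limma) but not without both replicate 1 libraries.

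Citrate cycle enzymes at 72 h had 9 of 13 higher and none lower, where 15.2% of all tested genes rose and 15.2% fell. Without both replicate 1 libraries, 7 were higher and none lower. Cs and Ogdh, a subunit of the 2-oxoglutarate dehydrogenase complex, each rose 1.30-fold and Idh3a 1.27-fold. At 24 h, 1 of the 13 rose and 1 fell. Among the carriers, Slc25a5 and Slc25a3, which bring ADP and phosphate to ATP synthase, rose 1.35- and 1.29-fold at 72 h and Vdac1 1.26-fold, while Ucp2, an uncoupling protein family member, fell 2.62-fold from 114 to 43.4 TPM. Of the 9 carriers, 3 rose and 1 fell, with or without both replicate 1 libraries. The 48 assembly factors had 2 higher and 5 lower, also with or without them, which is no larger a share than over all tested genes: Surf1, a complex IV assembly factor, fell 1.42-fold, Pet100 1.61-fold and Ndufaf3 1.41-fold, and Sco2, a copper chaperone of complex IV, rose 1.34-fold.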

How the data were processed

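RNA from 24 C2C12 libraries was poly(A)-selected and prepared with a stranded kit, per the labels' protocols. The authors deposited TPM values and a table of normalised values on a log scale, taken here as log2, for 48544 genes. The submitters' processing notes name Salmon, kallisto 0.51.1, DESeq and GRCm39, without their order or role. Differences in the deposited table are smaller than those in log2 TPM, by a factor that varied between comparisons and sets of genes. From day 0 to day 7 it was 0.649 over all genes and 0.486 over the members. In the other comparisons it was 0.635 to 0.706 over all genes and 0.683 to 0.695 over the members. The cause was not tested. Neither deposited table holds raw counts, which leaves sequencing depth unknown, and no interval rests on it.

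Columns were matched to samples by the labels, with no column of per-sample values left unused. Limma 3.58.1 (R 4.3.3) with a mean-variance trend was fitted to all 24 libraries with 6 group means. A gene was tested when 2 to the power of its deposited value reached 10 in at least 4 libraries; p-values were Benjamini-Hochberg adjusted over all 16257 genes, and a call is an adjusted p below 0.05. The alternative on log2(TPM + 0.1) covered 15250 genes that reached 0.5 TPM in 4 libraries. The fit was tested on simulated data. Same-numbered libraries deviated from their group means together in differentiation (correlations 0.145 to 0.212). They also did so with dexamethasone at 24 h (0.201 to 0.391) and 72 h (0.117 to 0.338). At 72 h, dexamethasone replicate 2 (0.117) correlated at least as well with another vehicle library as with vehicle replicate 2. The labels do not state a pairing, so the main tests were unpaired and a replicate block was fitted only as an alternative. The alternatives were other scalings, no filter, a replicate block, fits of only the groups compared and fits without each library.

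Transcript lengths came from GENCODE M21 (median over a gene's protein-coding transcripts) and promoters from RefSeq on GRCm38.p6. Genes named are the up to 10 called members with the largest difference in each comparison, all mitochondrially encoded members, isoform families, the Sdh genes, and from each list the up to 4 called genes with the largest difference plus Ppargc1a, Ppargc1b, Tfam, Nrf1, Esrra, Cyc1 and Cycs. Ndufb2, Ndufb3, Uqcrc1, Cox6c, Atp5sl and the single fibroblast, adipocyte and dividing-myoblast markers fall outside this rule and were named after their values were seen. Values of 1 member that the rule names are not reported here. The members and lists were chosen with earlier results of these data known. Near-identical copies of members, such as the 6 pseudogenes, can share reads with them.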

Additional observations from a re-analysis of the deposited data

Results flagged for a closer look

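In 246 groups of 4 libraries, the highest or lowest library was compared with the other 3; chance alone sets about 1 in 20 groups apart. The results below are values only. Day 0 replicate 2 had the lowest mitochondrially encoded share of TPM at 7.40%, against 8.54% to 8.74% in the other day 0 libraries, and the lowest mt-Atp8 at 16957 TPM, against 21456 to 22121 TPM. Day 0 replicate 1 had the highest mt-Co2 at 12024 TPM, against 10814 to 11021 TPM. Day 7 replicate 1 had a Cox7a1 share of its pair of 4.16%, against 3.35% to 3.48%, and 140.0 TPM of mt-Nd6, against 82.9 to 90.5 TPM. Vehicle 24 h replicate 3 had 59.1 TPM of mt-Nd6, against 78.9 to 82.9 TPM. Dexamethasone 24 h replicate 4 had the lowest nuclear share of TPM at 2.89%, against 3.06% to 3.07%, and also the lowest Ndufa11 at 34.5 TPM (39.0 to 39.9 TPM in the others) and Atp5k at 516.3 TPM (574 to 585 TPM in the others). Dexamethasone 24 h replicate 1 had 149 TPM of Ndufa10, against 133 to 135 TPM. Vehicle 72 h replicate 1 was highest for Ndufa1 at 516.4 TPM (414 to 427 TPM), Ndufc1 at 441 TPM (359.9 to 373 TPM) and Ndufa11 at 43.8 TPM (35.8 to 37.0 TPM). Dexamethasone 72 h replicate 3 was lowest for Ndufc1 at 314 TPM, against 368 to 375 TPM. Dexamethasone 72 h replicate 1 was highest for Cox7a1 at 37.7 TPM, against 26.2 to 28.0 TPM.

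The dexamethasone response differed between 72 h and 24 h for 4 of the genes named, none of them a member. The difference of responses was 0.53 table units for Pdss1, 0.44 for Myc, -0.51 for Nrip1 and 0.35 for Slc25a5 (adjusted p = 0.00470, 0.0374, 0.0169 and 0.0304 by limma, interaction contrast). Myc was not called in that contrast by TPM (adjusted p = 0.168 by limma) or in 14 of the other alternatives, and Slc25a5 was not called in 9.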

How the results depend on the processing

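No called gene named in the text changed direction under any alternative that was run. The differentiation count stayed within 1.5 times of 62, at 52 to 66 with 1 library left out. For dexamethasone at 24 h, 8 members were called with TPM rescaled without mitochondrial genes, which leaves 79 to test, 5 without a filter and 5 when only the compared groups were fitted, and 1 to 31 with 1 library left out (1 without vehicle replicate 3, 31 without vehicle replicate 2). For dexamethasone at 72 h, 4 members were called without a filter, 2 when only the compared groups were fitted, 4 without both replicate 1 libraries, and 2 to 7 with 1 library left out (2 without dexamethasone replicate 2, 3 without vehicle replicate 2 or dexamethasone replicate 4, 4 without vehicle replicate 3). For the difference between the times, 3 were called with median-centred TPM, 1 with a replicate block, 1 with only the compared groups and 1 without both replicate 1 libraries, and 0 to 4 with 1 library left out (4 without vehicle 24 h replicate 2). For vehicle at 72 h against 24 h, 2 were called with TPM rescaled without mitochondrial genes, 0 without a filter, 0 with only the compared groups, and 0 to 17 with 1 library left out (17 without vehicle 24 h replicate 2, and 0 without replicate 1 or 3 of vehicle at 24 h or replicate 1, 2 or 3 at 72 h, 3 without vehicle 72 h replicate 4 and 2 without day 0 replicate 2). For day 7 against vehicle at 24 h, 0 were called in every alternative. The cause of these shifts was not tested, except that leaving out libraries or groups gives fewer samples.

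With the replicate block as pairing, 64 members were called in differentiation, 12 at 24 h and 6 at 72 h of dexamethasone, through calls of mt-Nd6 and Cox7a2l gained in differentiation and of Ndufb3 at 24 h and Ndufa10 at 72 h lost; Cox5a was called for the difference between the times, and the block changed no other call of a member. Of the called members named, 24 of 28 in differentiation, 0 of 12 at 24 h and 2 of 7 at 72 h (Cox5a and Atp5s) were called under every alternative. Read depth is unknown, so no limit of detection is given for the members near zero.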
